A study of Mus musculus with 12 samples.

Results

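Oxidative phosphorylation is carried out by 5 complexes of the inner mitochondrial membrane, and the nuclear genes that encode their subunits were followed here in 2 mouse liver cancer models with and without dietary tryptophan (Trp). Members were all gene symbols of the count tables that begin with Ndufa, Ndufb, Ndufc, Ndufs or Ndufv and a number, with Uqcr, with Cox4 to Cox8 or with Atp5, and Sdha to Sdhd, with pseudogene symbols left out. The rule found 84 of the 24062 symbols. Of these, 35 belong to complex I, 4 to complex II, 8 to complex III, 20 to complex IV (with Ndufa4 and Ndufa4l2 placed there) and 15 to complex V. The remaining 2, Atp5s and Atp5sl, carry the prefix but are not counted as subunits.

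The study asked what a diet without Trp does to MYC-driven liver cancer. Poly(A) RNA of 12 mice was sequenced, 3 in each of 4 groups. The liver control and liver No-Trp groups were whole livers of male FVB mice with the LAP-tTA and TRE-MYC transgenes (MYC-ON livers), in which a liver promoter drives the tetracycline transactivator and human MYC has been on since doxycycline was withdrawn at birth. The xenograft control and xenograft No-Trp groups were subcutaneous tumors of HCC53N cells in NOD SCID mice, female by the study's methods. HCC53N is 1 mouse liver cancer cell line that lacks p53 and carries mutant NRAS. The labels also give it as FVB MYC ON, while the study's methods describe its parent tumors by p53 deletion and Nras alone. Mice of both models ate a control diet with Trp or the No-Trp diet for 21 days. The labels give an age for another experiment, and none is stated here. Model is confounded with strain, sex, host, site and oncogene, so these cannot be told apart.

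Complex I takes electrons from NADH, and complex II, which is succinate dehydrogenase of the tricarboxylic acid (TCA) cycle, takes them from succinate. Both pass them through ubiquinone to complex III and then through cytochrome c to complex IV, where oxygen is reduced, and the proton gradient made by complexes I, III and IV drives ATP synthesis by complex V. Every subunit of complex II is nuclear, whereas the other complexes also hold subunits encoded in mitochondrial DNA. None of 26 mitochondrially encoded symbols searched for was in the count tables, so the account covers the nuclear genes alone. Several complex IV subunits and the c subunit of complex V come as families of related genes, some of them used mainly in muscle or testis.

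Libraries held 14660963 to 26085349 reads on genes. Of the reads in each table, 24.7% to 39.4% were not assigned to a gene. Liver control 101 stood apart, with 12.1% of its gene reads on the ribosomal RNA precursor Rn45s against 0.261% to 2.22% in the other 11. Livers 101 and 108 and xenografts 41 and 43 bear a resubmission mark in their file names, and the file of xenograft control 40 was named in another pattern. Levels are given as CPM, reads of a gene relative to the scaled library size, on 1 scale for the 12 libraries. Different genes are compared only after division by transcript length, as TPM, computed here from the counts as reads per base of transcript scaled to the same sum in every library. In whole tissue, fewer cells of a type and less RNA per cell cannot be told apart. All 8 hepatocyte markers were at 1 CPM or more in every library, and their summed level was 10426 to 38433 CPM in control livers, 46876 to 117245 CPM in No-Trp livers, 326 to 844 CPM in control xenografts and 326 to 659 CPM in No-Trp xenografts.

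Promoter sequences show which regulatory letters the members have in common. RefSeq windows of GRCm38.p6, from 250 bases before to 50 after the gene start, were at hand for 66 members (1 window for each gene) and for 27025 genes in all. The NRF1 motif (GCGCA, any base, then GCGC), searched on both strands like the others, was in 16 member windows (24.2%) against 4.78% of all windows. The ETS motif CCGGAAG, which GABP recognises, was in 15 member windows (22.7%) against 9.12%, and the E-box CACGTG, the letters bound by MYC with MAX, was in 5 (7.58%) against 7.24%. The YY1 motif (AA, any base, ATGG, then CGGC) was in 4 (6.06%) against 1.07%, and a shorter form of it that ends 1 base earlier and has G for the open base was in the same number against 0.899%. At least 1 of these motifs was in 33 member windows (50%) and in 19.5% of all. No test was made of these shares. Sites before the RefSeq start of some genes named below follow, 30 bases each, from RefSeq GRCm38.p6 and read 5′ to 3′ along the gene's own strand. By the gene starts of GENCODE M21, used here for lengths, not all of them are upstream. The motifs of the third Sdha, the third Cox6a1 and the Atp5g2 line, and most of the Atp5k motif, lie inside the gene. Capitals mark the NRF1 motif, except that they mark the reverse complement of the ETS motif (CTTCCGG) in the second Sdhd and the third Cox6a1 line and the E-box in the Atp5g1 line.
Sdha (chr13:74350319-74350348, minus strand): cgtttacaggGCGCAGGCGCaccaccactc
Sdha (chr13:74350276-74350305, minus strand): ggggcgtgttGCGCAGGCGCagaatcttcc
Sdha (chr13:74350241-74350270, minus strand): cgacacccgcgcgactcggtGCGCAAGCGC
Sdhd (chr9:50603909-50603938, minus strand): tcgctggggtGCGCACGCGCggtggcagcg
Sdhd (chr9:50603877-50603906, minus strand): ccgtctcctgcCTTCCGGttcacgcttcag
Cox6a1 (chr5:115349101-115349130, minus strand): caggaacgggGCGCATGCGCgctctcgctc
Cox6a1 (chr5:115349056-115349085, minus strand): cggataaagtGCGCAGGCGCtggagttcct
Cox6a1 (chr5:115348959-115348988, minus strand): cgtccccatttccgCTTCCGGcgcgccggt
Atp5k (chr5:108434430-108434459, minus strand): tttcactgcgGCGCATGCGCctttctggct
Atp5g2 (chr15:102671070-102671099, minus strand): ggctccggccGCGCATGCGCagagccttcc
Atp5g1 (chr11:96075658-96075687, minus strand): agggactccgaaCACGTGggtgggggagct

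Further upstream stretches are shown for Atp5g3, a c-subunit gene that differed between the models, and for Cox7a1 and Cox6b2, the genes with the largest falls on the diet in livers. Each is the longest run before the gene start that lies outside annotated exons. Only the Atp5g3 stretch holds one of the motifs, an E-box, shown in capitals.
Atp5g3 (chr2:73911327-73911576, minus strand): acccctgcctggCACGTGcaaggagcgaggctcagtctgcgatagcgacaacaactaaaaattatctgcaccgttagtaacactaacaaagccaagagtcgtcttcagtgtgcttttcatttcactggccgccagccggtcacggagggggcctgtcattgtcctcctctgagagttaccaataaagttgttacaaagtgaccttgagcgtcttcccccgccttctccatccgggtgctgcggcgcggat
Cox7a1 (chr7:30183921-30184143, plus strand): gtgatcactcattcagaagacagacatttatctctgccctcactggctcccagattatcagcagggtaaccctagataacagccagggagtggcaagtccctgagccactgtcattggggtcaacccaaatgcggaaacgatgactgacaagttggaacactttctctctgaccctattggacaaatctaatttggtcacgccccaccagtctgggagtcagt
Cox6b2 (chr7:4753095-4753225, minus strand): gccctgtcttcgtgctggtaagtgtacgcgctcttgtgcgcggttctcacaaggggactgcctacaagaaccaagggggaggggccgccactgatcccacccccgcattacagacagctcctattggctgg

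Of the comparisons made, subunit mRNA differed most between the models. On control diet, 53 of the 80 members tested were lower in xenografts than in livers at an edgeR adjusted p of at most 0.05, and 0 were higher (57 members passed an unadjusted p under 0.05, of which 1 was higher), where 28.7% of all genes tested were called lower and 30.8% higher. On the No-Trp diet, 73 were lower and 2 higher, where 26.4% of all genes were called lower and 33.2% higher. With a change of at least 2-fold as well, 36 members were lower on control diet (20.2% of all genes) and 59 on No-Trp diet (19.1% of all genes). The median log2 fold change (xenograft over liver) was -0.84 for the members and 0.01 for all genes on control diet, and -1.24 against 0.15 on No-Trp diet.

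**Figure D1:**
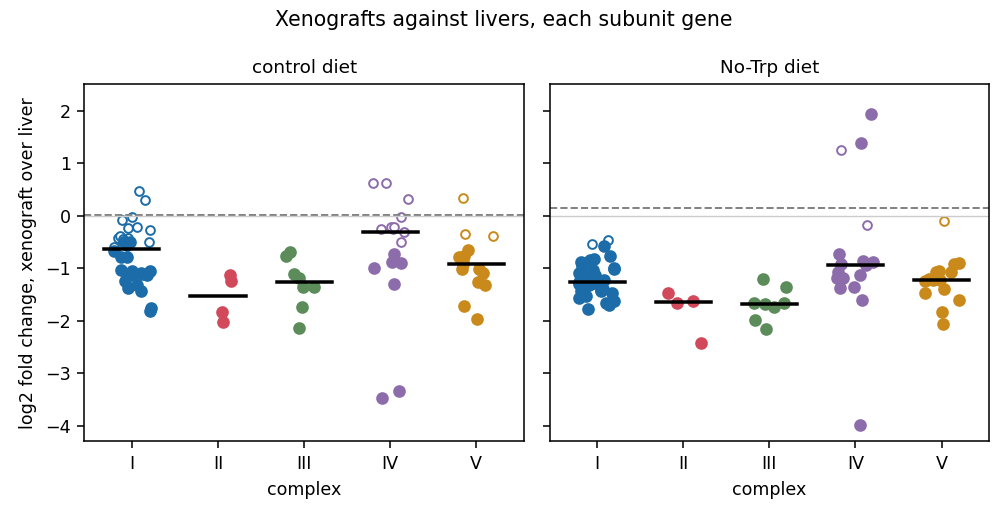
Log2 fold change of each tested subunit gene, xenograft over liver, on control diet (left) and No-Trp diet (right), by complex (complexes I to V on the horizontal axis). Filled points passed the edgeR test at an adjusted p of at most 0.05, open points did not, black bars are complex medians and the dashed line is the median of all genes tested. All points of complexes II and III lie below 0 on both diets, with medians of -1.54 and -1.27 on control diet.

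All 4 genes of succinate dehydrogenase were lower in xenografts by at least 2-fold on both diets. Sdhb, its iron-sulfur subunit, was measured at 297, 253 and 221 CPM in control livers and 323, 427 and 424 CPM in No-Trp livers. In the xenografts it was at 69.2, 65.5 and 82 CPM on control diet and 71.8, 75 and 70.6 CPM on No-Trp diet. Every liver was thus above every xenograft. The log2 fold change of Sdhb was -1.83 ± 0.17 (SE) on control diet (edgeR adjusted p = 2.01e-06) and -2.43 ± 0.17 on No-Trp diet (edgeR adjusted p = 2.25e-07).

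Sdhd, a membrane anchor of the same complex, was measured at 407, 377 and 415 CPM in control livers and 304, 298 and 342 CPM in No-Trp livers, against 89.2 to 112 CPM over the 6 xenografts. Its log2 fold change was -2.03 ± 0.14 on control diet and -1.67 ± 0.14 on No-Trp diet. Sdha, the flavoprotein that oxidises succinate, ranged from 311 to 655 CPM in livers and from 172 to 206 CPM in xenografts. Sdhc, the other anchor, ranged from 181 to 258 CPM and from 74.3 to 98.9 CPM. Neither range overlapped between the models. The log2 fold changes of Sdha and Sdhc were -1.24 and -1.13 on control diet and -1.47 and -1.62 on No-Trp diet.

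Complex III showed the same direction in 8 of 8 genes on each diet, all of them called. The core proteins Uqcrc2 and Uqcrc1 had the largest differences on control diet, at -2.14 ± 0.15 and -1.75 ± 0.16 on the log2 scale. Uqcrc2 was measured at 473, 427 and 435 CPM in control livers and at 98.1, 103 and 103 CPM in control xenografts. On the No-Trp diet it was at 420 to 519 CPM in livers and 94.9 to 115 CPM in xenografts, so that its libraries did not overlap between the models on either diet. Of its annotated exon bases, 26.6% are shared with Pdzd9 on the other strand. The smallest difference on control diet was that of the hinge protein gene Uqcrh, at -0.70 ± 0.20 (edgeR adjusted p = 0.00859).

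In complex I, 21 of 34 tested genes were lower on control diet and 32 of 34 on No-Trp diet, with 0 called higher. Ndufs1, the largest subunit, was measured at 170, 197 and 209 CPM in control livers and 43.6, 57.3 and 62.4 CPM in control xenografts (log2 fold change -1.82 ± 0.16), with no overlap. Ndufv2, which holds an iron-sulfur cluster next to the NADH site, differed by -1.76 ± 0.21. Of the 27 accessory genes tested, 14 were lower on control diet and 25 on No-Trp diet. The largest difference on No-Trp diet was that of Ndufb10, an accessory subunit of the membrane arm, at -1.77 ± 0.20. At the other end, the accessory genes Ndufa7 (0.47 ± 0.24 on control diet) and Ndufa12 (-0.47 ± 0.21 on No-Trp diet) did not pass the test.

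Complex V was lower in 12 of 15 genes on control diet and 14 of 15 on No-Trp diet. Atp5a1, the α subunit of the catalytic F1 head, was measured at 1934, 2029 and 2097 CPM in control livers and 622, 569 and 649 CPM in control xenografts (log2 fold change -1.72 ± 0.16). Atp5b, the catalytic β subunit, differed less, with control xenografts at 0.467 of the control liver level and a log2 fold change of -1.07 ± 0.16 on No-Trp diet. Atp5g2 was called on neither diet, and its 6 livers (123 to 152 CPM) overlapped the 6 xenografts (121 to 198 CPM). Its log2 fold change was 0.34 ± 0.15 on control diet (edgeR adjusted p = 0.0671) and -0.11 ± 0.15 on No-Trp diet (edgeR adjusted p = 0.561), and the second changed sign when scaled by library totals alone (0.42) and with an offset for exon length (0.04). On control diet it passed the test, as higher, with library totals (0.50), with the length offset (0.46) and without xenograft control 41 (0.44).

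Complex IV had the smallest median difference, -0.31 on control diet with 7 of 17 tested genes lower, and -0.94 on No-Trp diet with 13 lower and 2 higher. Transcript length also differs between complexes. Members under 1000 bases had medians of -0.69 on control and -1.21 on No-Trp diet, and longer ones -1.12 and -1.47. Over all genes the order was reversed, at -0.17 and -0.24 for short and 0.03 and 0.17 for longer genes. The part of length in the order of the complexes was not tested. Cox5b, a zinc-binding subunit on the matrix side, was lower on both diets at -1.30 ± 0.18 and -1.38 ± 0.18. Cox4i1, the ubiquitous form of subunit IV, was measured at 713, 517 and 535 CPM in control livers and 586, 432 and 469 CPM in control xenografts, groups that overlapped. Its log2 fold change was -0.25 ± 0.22 on control diet (edgeR adjusted p = 0.34) and -0.92 ± 0.22 on No-Trp diet (edgeR adjusted p = 0.00291).

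The largest difference within complex IV on No-Trp diet was that of Cox6a2, the muscle form of subunit VIa, at 3.49, 5.17 and 13.6 CPM in livers and 0.508, 0.534 and 0.339 CPM in xenografts (-3.98 ± 0.83). Cox6a1, the ubiquitous form, was lower on No-Trp diet (-1.14 ± 0.21, edgeR adjusted p = 0.000546) and at -0.31 ± 0.21 on control diet. Ndufa4, a subunit of complex IV that was first assigned to complex I, was lower on No-Trp diet (-0.88 ± 0.21, edgeR adjusted p = 0.00325) and at -0.22 ± 0.21 on control diet. Both genes called higher on No-Trp diet were low in reads. Ndufa4l2, a paralog of Ndufa4 known to be induced by hypoxia, was at 2.12, 1.11 and 0.699 CPM in No-Trp livers and 4.1, 3 and 3.22 CPM in No-Trp xenografts (log2 fold change 1.38 ± 0.44, edgeR adjusted p = 0.0163), a call that was lost in 3 of the 6 fits without 1 library. Cox7a1, the muscle form of subunit VIIa, is described with the diet in livers.

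Of the members that are not subunits, Atp5sl was lower in xenografts on both diets (-1.69 ± 0.19 and -2.46 ± 0.20), and Atp5s was called on No-Trp diet (-0.82 ± 0.30, edgeR adjusted p = 0.0342) and not on control diet (-0.37 ± 0.30). By promoter letters, the median log2 fold change on control diet was -1.05 for the 15 tested members with the NRF1 motif and -0.83 for the 48 without it, and for the ETS motif -0.70 with and -0.95 without. On No-Trp diet these medians were -1.27 and -1.23 for NRF1 and -1.21 and -1.28 for ETS.

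**Figure D2:**
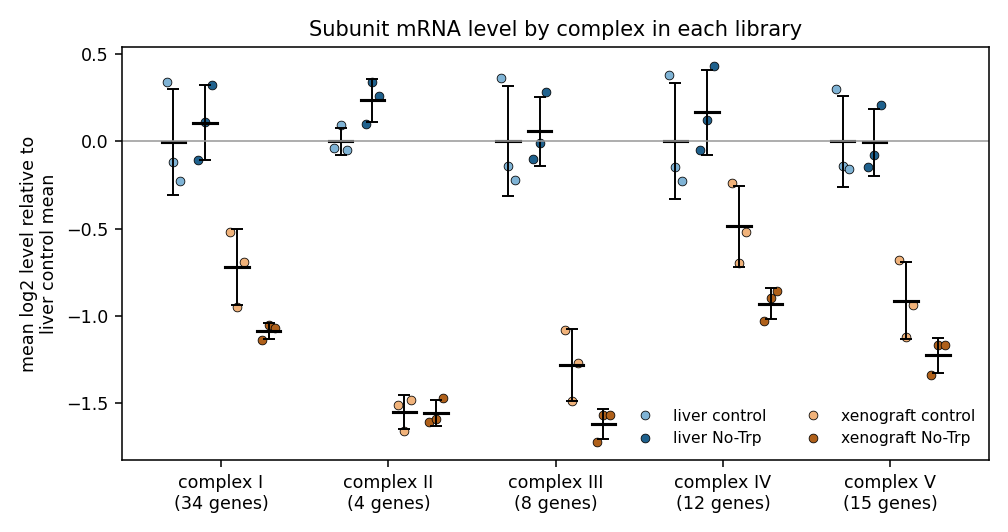
Mean log2 level of the genes of each complex in each library relative to the mean of control livers (vertical axis), by complex, for members with a mean normalised count of at least 100. Points are libraries, thick bars group means and thin bars SD (n = 3). Xenografts lie below livers in every complex, and in complexes I, III, IV and V all No-Trp xenografts also lie below all control xenografts, with complex I at -1.09 ± 0.05 against -0.72 ± 0.22.

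Averaged over genes, the level of complex II relative to control livers was -1.55 ± 0.10 (SD, n = 3) in control xenografts and -1.56 ± 0.08 in No-Trp xenografts, on the log2 scale. For complex I the same means were -0.72 ± 0.22 and -1.09 ± 0.05. Liver control 101 was the highest control liver in complexes I, III, IV and V, but not in complex II, at 0.34 for complex I against -0.12 and -0.23 in the other control livers. Without that library, the median log2 fold change between the models on control diet was -0.56, against 0.04 for all genes. In that fit 46 members were lower and 3 were higher, where 26.3% of all genes were lower and 28.3% higher.

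Within the c-subunit family of complex V, where Atp5g1, Atp5g2 and Atp5g3 encode the same mature protein, Atp5g1 and Atp5g3 were lower in xenografts on both diets. Atp5g1 was measured at 409, 293 and 285 CPM in control livers, 251, 253 and 388 CPM in No-Trp livers, 103, 68 and 80.1 CPM in control xenografts and 61.4, 73.1 and 78.7 CPM in No-Trp xenografts. Atp5g3 ranged from 538 to 756 CPM in livers and from 166 to 263 CPM in xenografts. Both genes were lower in every xenograft than in any liver. The log2 fold changes on control and No-Trp diet were -1.97 ± 0.23 and -2.07 ± 0.23 for Atp5g1 and -1.33 ± 0.19 and -1.84 ± 0.19 for Atp5g3, while Atp5g2 passed neither test.

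Pairs within families were chosen after their values were seen, so their ratios are given as a description with no test. Per kilobase, the level of Atp5g2 was 0.226 ± 0.0249 of that of Atp5g3 in livers (SD, n = 6) and 0.734 ± 0.0899 in xenografts (n = 6). The liver ratios, 0.19 to 0.262, and the xenograft ratios, 0.64 to 0.874, did not overlap. The difference in mean log2 ratio was 1.70, and 1.67 on control and 1.73 on No-Trp diet. Annotated transcripts of Atp5g1 run from 596 to 4715 bases, so its level per kilobase is uncertain. The difference between models in its log2 ratio to Atp5g3, in which length cancels, was -0.64 on control and -0.21 on No-Trp diet. The Atp5g2 window holds an NRF1 motif and the windows of Atp5g1 and Atp5g3 an E-box, and that of Atp5g3 also has the NRF1 motif after its start.

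Another pair was Cox7a2, the ubiquitous subunit VIIa, and Cox7a2l, also known as SCAF1, which joins complex III to complex IV in supercomplexes. Cox7a2l per kilobase was 0.569 ± 0.0936 of Cox7a2 in livers and 1.15 ± 0.129 in xenografts (SD, n = 6 each), with no overlap. The mean log2 ratio differed by 1.02, and by 1.30 on control and 0.74 on No-Trp diet. Cox7a2 was at 129 to 220 CPM in livers and 53.4 to 89.2 CPM in xenografts, with control xenografts at 0.499 of control livers (edgeR adjusted p = 0.0014) and a log2 fold change of -1.60 ± 0.21 on No-Trp diet. Cox7a2l was at 0.31 ± 0.16 on control diet (edgeR adjusted p = 0.117) and lower on No-Trp diet, at -0.87 ± 0.17 (edgeR adjusted p = 0.000728).

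**Figure D3:**
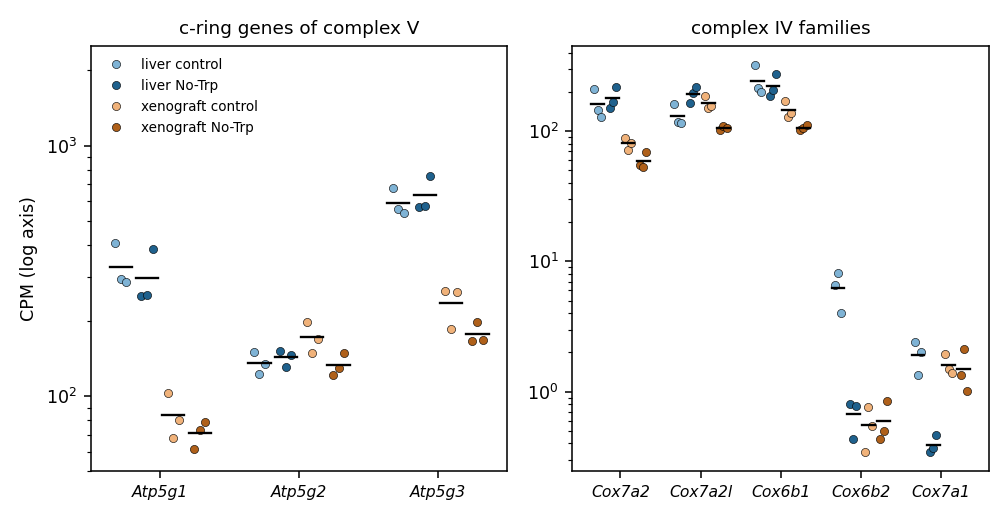
Level in CPM (log axis) of the 3 c-subunit genes of complex V (left) and of 5 genes of complex IV families (right) in each library. Points are libraries, coloured by group, and bars are group means (n = 3). Atp5g2 overlaps between models, Atp5g1 and Atp5g3 do not, and Cox6b2 and Cox7a1 stand lower in No-Trp livers than in control livers.

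In livers, few subunit genes differed with the diet beyond the spread of the replicates. Of 79 members tested, 2 rose (Ndufb9 and Ndufv1) and 2 fell (Cox6b2 and Cox7a1) in No-Trp livers, where 13.3% of all genes tested rose and 12% fell. The member shares, 2.53% in each direction, were thus below the background. The median log2 fold change (No-Trp over control) was 0.08 for the members and 0.00 for all genes, and -0.21 and -0.30 when library totals replaced the TMM factors. By complex, the median was 0.05, 0.35, 0.05, 0.12 and 0.09 for complexes I to V.

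Cox6b2, the form of subunit VIb known from testis, whose upstream stretch is printed above with that of Cox7a1, showed the largest change. It was measured at 6.56, 8.17 and 3.99 CPM in control livers and 0.801, 0.431 and 0.777 CPM in No-Trp livers, and the groups did not overlap. It fell by 3.19 ± 0.42 on the log2 scale (edgeR adjusted p = 0.0136). In the xenografts it was at 0.343 to 0.848 CPM over both diets. Cox6b1, the ubiquitous form, was at 200 to 321 CPM in control livers and 188 to 276 CPM in No-Trp livers (log2 fold change -0.11 ± 0.25), and per kilobase Cox6b2 made up 3.17% ± 1.22 of the pair in control livers and 0.38% ± 0.137 in No-Trp livers (SD, n = 3 each).

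Cox7a1 was at 2.41, 1.35 and 2 CPM in control livers and 0.343, 0.369 and 0.466 CPM in No-Trp livers, and fell by 2.27 ± 0.42 (edgeR adjusted p = 0.0196). In No-Trp livers these values rest on 6 reads in each library. Xenografts held 1.02 to 2.14 CPM over both diets, so that on No-Trp diet the log2 fold change of xenograft over liver was 1.93 ± 0.45 (edgeR adjusted p = 0.00288). Without liver control 103, neither Cox7a1 nor Cox6b2 passed the test in livers, and Cox7a1 failed it in 3 of the 6 fits without 1 liver. Summed levels of 13 skeletal muscle markers overlapped between the liver groups, at 18.6 to 84.7 CPM on control and 21.4 to 98.8 CPM on No-Trp diet, with 0 of them at 0 throughout a group. Those of 11 erythroid markers, of which 6 were at 0 throughout the control livers, did not overlap, at 56.4 to 566 CPM and 15.7 to 24.5 CPM, and neither did the hepatocyte markers given above. Brown adipocyte (9.6 to 26.4 and 40.1 to 65.6 CPM), endothelial (95.7 to 185 and 206 to 331 CPM) and pericyte markers (37.8 to 53.7 and 60.9 to 102 CPM) were higher in all No-Trp livers. Only 1 of the 5 brown adipocyte genes was at 1 CPM or more in every library of either liver group. That list holds Ppargc1a, whose values are given below, so its sum does not show brown adipocytes. The part of these lists in these changes was not tested.

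The complex I genes that rose were smaller in effect. Ndufv1, the subunit that binds NADH and flavin mononucleotide, was measured at 183, 196 and 190 CPM in control livers and 241, 312 and 310 CPM in No-Trp livers (log2 fold change 0.62 ± 0.17, edgeR adjusted p = 0.0396). Ndufb9, an accessory subunit of the membrane arm, was measured at 166, 135 and 117 CPM and 179, 246 and 231 CPM (0.67 ± 0.20, edgeR adjusted p = 0.0481). All No-Trp livers lay above all control livers in both genes, as in 8 members in all (10.1% of those tested, against 23.6% of all genes). Leaving out any 1 of the 6 livers ended both calls. Of the annotated exon bases of Ndufb9, 28.6% are shared with the overlapping gene model Gm49356.

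Several further members lay near the threshold without passing it. Sdhb was at 0.62 ± 0.20 (edgeR adjusted p = 0.0605), Cox7a2l at 0.57 ± 0.20 (0.0695) and Ndufv3, a small subunit of the NADH module, at 0.57 ± 0.21 (0.0814). Cox6a2 was at 3.38, 0.676 and 1.28 CPM in control and 3.49, 5.17 and 13.6 CPM in No-Trp livers (log2 fold change 2.06 ± 0.72, edgeR adjusted p = 0.0721). For Ndufa4l2 the levels were 3.23, 2.2 and 4.59 CPM and 2.12, 1.11 and 0.699 CPM (-1.32 ± 0.49, edgeR adjusted p = 0.0852). None of these genes passed when 1 liver was left out. In 7 other settings, which include the length offset, Sdhb passed in 4, Cox7a2l and Cox6a2 in 3 each, and Ndufv3 and Ndufa4l2 in 2 each. Sdhd was the member of complex II with the opposite sign, at -0.33 ± 0.17 (edgeR adjusted p = 0.18), although its lowest control liver (377 CPM) lay above its highest No-Trp liver (342 CPM).

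The extremes of complex III in livers were Uqcrq, a small subunit, at 0.40 ± 0.29 and Uqcr11 at -0.32 ± 0.33. Those of complex V were Atp5e, the ε subunit of F1, at 0.23 ± 0.25 and Atp5j2, the f subunit of the membrane domain, at -0.39 ± 0.31.

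In the xenografts, most subunit genes were at a lower mean level without Trp, and none passed the test over all genes. Of 79 members, 73 had a log2 fold change below 0, and the median was -0.38 against 0.00 for all genes, of which 50.5% were below 0. edgeR called 0 members at an adjusted p of at most 0.05, where 0.374% of all genes were called in either direction. At an unadjusted p under 0.05, 36 members were lower and 0 higher, where 9.07% of all genes were lower and 7.82% higher, and DESeq2 called 6 members lower after adjustment, with 2.2% of all genes. In 34 members all 3 No-Trp xenografts lay below all 3 control xenografts (43% of those tested, against 11.8% of all genes).

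**Figure D4:**
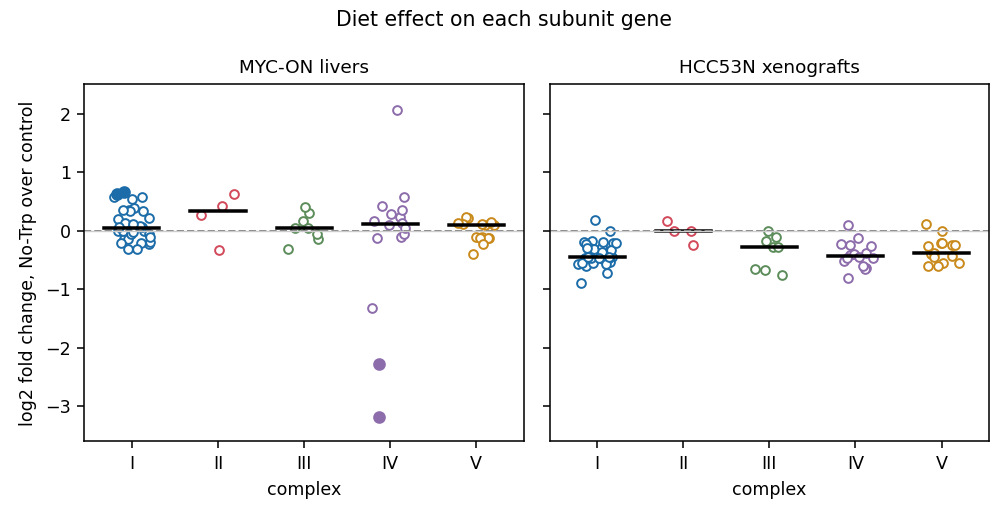
Log2 fold change of each tested subunit gene, No-Trp over control diet, in MYC-ON livers (left) and HCC53N xenografts (right), by complex (complexes I to V on the horizontal axis). Filled points passed the edgeR test at an adjusted p of at most 0.05, open points did not, black bars are complex medians and the dashed line is the median of all genes tested. In xenografts the points of complexes I, III, IV and V lie mostly below 0, with medians from -0.45 to -0.28, and those of complex II around 0.

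The lowest member was Ndufa6, an accessory subunit of complex I. It was measured at 140, 95.1 and 122 CPM in control xenografts and 65.8, 65.3 and 63.1 CPM in No-Trp xenografts (log2 fold change -0.89 ± 0.17, edgeR adjusted p = 0.0594). Cox6c, a small subunit of complex IV, was at 213, 153 and 195 CPM and 117, 107 and 99.2 CPM (-0.81 ± 0.16, edgeR adjusted p = 0.0748). Uqcrh was at 118, 88 and 102 CPM and 64.7, 59 and 61.5 CPM (-0.75 ± 0.15, edgeR adjusted p = 0.0748). In each of these genes the highest No-Trp library lay below the lowest control library. Within complex V the lowest was Atp5k, the e subunit of the membrane domain, at -0.61 ± 0.20 (edgeR adjusted p = 0.187).

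In complex II the log2 fold changes ran from -0.24 (Sdhc) to 0.16 (Sdha), with a median of 0.00. Sdha was at 178, 172 and 172 CPM in control and 190, 194 and 206 CPM in No-Trp xenografts, all No-Trp values being the higher ones. Sdhb, at the values given above, overlapped between the diets. In the other complexes the highest values were those of Ndufs1 (0.18 ± 0.18), Atp5b (0.11 ± 0.14), Uqcrc2 (0.00 ± 0.14) and, at a low level, Cox6b2 (0.09 ± 0.55). The 27 accessory genes of complex I had a median of -0.45 and the 7 core genes one of -0.29. Of the 75 members with a mean normalised count of at least 100, 44 were above 0 in livers and below 0 in xenografts, 26 below 0 in both, 3 above 0 in both and 2 below 0 in livers alone.

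Transcript length moved with these values. Members were short, with a median annotated length of 838 bases against 2768 bases for all genes tested, and ran from 315 bases (Ndufc1) to 3171 bases (Sdhc). The 46 members under 1000 bases had a median log2 fold change of -0.46 and the 29 longer ones -0.24. Over all genes tested the medians were -0.29 and 0.01. The 4 genes of complex II, from 1142 bases (Sdhb) to 3171 bases (Sdhc), were all among the longer members. Across the 75 members, Spearman's correlation of log2 fold change with length was 0.65, and it was 0.23 over all genes. These genes share the same libraries, their depth and their RNA quality, and are not independent replicates. In livers the same correlation was 0.02 for the members. With library-specific length trends taken out, a setting added after seeing the data, the median of the members in xenografts was -0.28 and 21 were lower at an unadjusted p under 0.05. The part of length in the members' values was not tested beyond this.

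**Figure D5:**
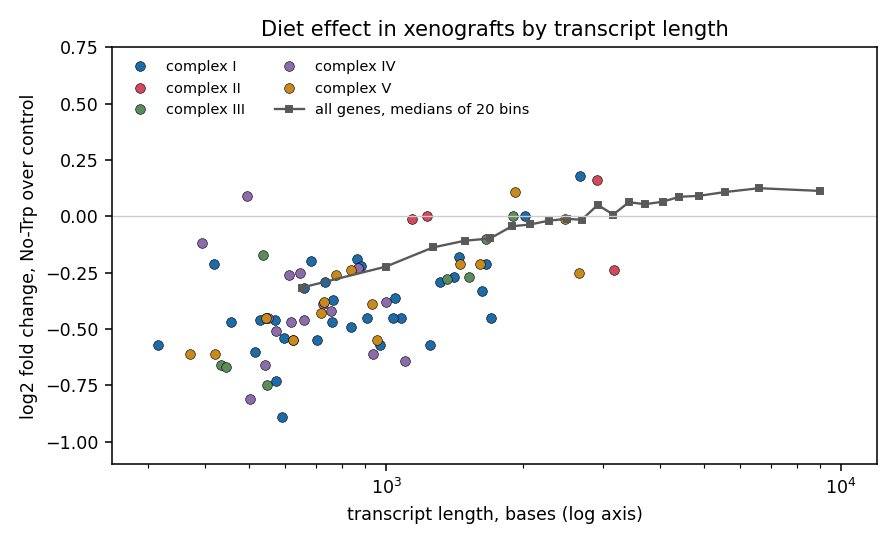
Log2 fold change in xenografts, No-Trp over control diet, of each tested subunit gene against annotated transcript length (log axis), coloured by complex, with the medians of all genes tested in 20 bins of length (grey squares and line). Both the members and the grey line are lower at short lengths, the line running from -0.316 in the bin of the shortest genes to 0.113 in that of the longest.

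Markers of some other cells also moved with the diet in xenografts. The summed level of 13 skeletal muscle markers was 5.64 to 28.5 CPM on control and 50.2 to 99.4 CPM on No-Trp diet. That of 6 adipocyte markers was 14.2 to 69.1 CPM and 389 to 823 CPM, and that of 6 endothelial markers 48.1 to 115 CPM and 128 to 201 CPM. Cardiac and slow muscle markers went the other way, with medians of 295 CPM on control and 83.9 CPM on No-Trp diet. Their ranges, 104 to 357 CPM and 48.2 to 110 CPM, overlapped. So did the sums of macrophage, fibroblast and stellate, and cholangiocyte markers. Of the 13 skeletal muscle markers, 1 was at 1 CPM or more in every control xenograft and 11 in every No-Trp xenograft. These numbers were 2 and 5 for the 6 adipocyte, 4 and 4 for the 6 endothelial and 2 and 3 for the 6 cardiac and slow muscle markers. The sums can thus rest on few genes. No marker of the lists in this paragraph was at 0 throughout a group, and their part in the members' values was not tested. Xenograft control 40 held the highest mean level of the members among the control xenografts, and without it the median was -0.27 and 15 members were lower at an unadjusted p under 0.05. Without No-Trp xenograft 35 that number was 14.

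Whether the models responded differently to the diet was tested by the interaction of diet and model, with the 12 libraries fitted together. Of 80 members, 2 had a more positive diet effect in xenografts than in livers and 6 a more negative one, where 8.25% and 7.39% of all genes were called. The member shares were 2.5% and 7.5%, the first below and the second near that background. The more positive ones were Cox6b2 (3.30 ± 0.67, edgeR adjusted p = 0.0117) and Cox7a1 (2.18 ± 0.61, edgeR adjusted p = 0.0329), which had fallen in livers.

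The more negative ones were 5 genes of complex I and Cox7a2l. Ndufa6 differed by -1.25 ± 0.32 (edgeR adjusted p = 0.0262), being at 196, 115 and 103 CPM in control and 157, 181 and 196 CPM in No-Trp livers, groups that overlapped. Ndufb9 differed by -1.19 ± 0.26 (edgeR adjusted p = 0.0144), with 153, 112 and 145 CPM in control and 94.5, 102 and 85.8 CPM in No-Trp xenografts. Here every No-Trp xenograft was below every control xenograft, the reverse of the order in livers.

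Cox7a2l differed by -1.18 ± 0.23 (edgeR adjusted p = 0.011). It was at 161, 117 and 116 CPM in control and 165, 195 and 217 CPM in No-Trp livers, and at 185, 150 and 156 CPM in control and 103, 109 and 105 CPM in No-Trp xenografts. The direction of its means was thus opposite in the models, although neither diet comparison passed the test alone. Ndufa2, an accessory subunit (-1.06 ± 0.33), Ndufv3 (-0.99 ± 0.26) and Ndufv1 (-0.81 ± 0.22) made up the rest, with edgeR adjusted p-values of 0.0485, 0.0258 and 0.0328. In complex II, Sdhb was at -0.60 ± 0.23 and Sdhd at 0.35 ± 0.19, and neither passed (edgeR adjusted p = 0.0923 and 0.224).

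By TPM, the order of members was led by the ATP synthase and complex IV. In control livers Atp5b was at 2580 TPM, Atp5a1 at 1633, Atp5g3 at 1629 and Cox4i1 at 1538, of which the last 3 lay close together. In control xenografts Cox4i1 led with 1433 TPM, followed by Atp5b with 1321 and Cox8a, the ubiquitous subunit VIII, with 1004. Muscle and other tissue forms were at low levels. By TPM, Cox6a2 made up 0.479% ± 0.309 of the subunit VIa pair in control livers and 1.57% ± 0.894 in No-Trp livers (SD, n = 3 each), and 0.0606% ± 0.0566 and 0.234% ± 0.063 in xenografts on the same diets. Cox4i2, known as the lung form, made up 0.0999% ± 0.0376 and 0.0473% ± 0.0426 of the subunit IV pair in livers and 0.195% ± 0.051 and 0.206% ± 0.0952 in xenografts. Cox7b2, Cox8b and Cox8c reached at most 20 reads in any library and were not tested, and Ndufs5 was listed at 0 in all 12.

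Among other genes of the pathway, Cyc1, the cytochrome subunit of complex III whose symbol the rule does not take, was lower in xenografts at -1.21 ± 0.15 and -1.41 ± 0.15 on control and No-Trp diet. Cycs, cytochrome c, was lower at -1.53 and -0.92. Of 14 TCA cycle genes, 13 were lower in xenografts on each diet and 0 were called in either diet comparison (4 in livers and 1 in xenografts had an unadjusted p under 0.05). Of 15 assembly factors of complex I, 12 were lower in xenografts on control diet, 11 on No-Trp diet and 3 fell with the diet in livers, where, of all genes, 28.7%, 26.4% and 12% were called in these directions. Of 21 tested assembly factors of complex IV, 13 and 15 were lower in xenografts, with the largest difference in Lrpprc, which stabilises mitochondrial mRNA, at -2.52 on control diet. With the diet, 0 of them were called (2 in livers and 6 in xenografts had an unadjusted p under 0.05).

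For the lists that follow, the shares of all genes that rose and fell in livers, 13.3% and 12%, are the background. Of 8 genes of other routes that feed electrons to ubiquinone, 4 rose and 1 fell (62.5% called, against 25.3% of all genes). The log2 fold changes of all 8 ran from Sqrdl at 2.49 to Dhodh, which acts in pyrimidine synthesis, at -1.20. Gpd2, the mitochondrial glycerol phosphate dehydrogenase, was at 1.74. Of 13 genes of coenzyme Q synthesis or function, 2 rose and 1 fell (23.1% called, against 25.3% of all genes). They ran from Coq10b, not itself a synthesis enzyme, at 1.64 to Pdss1, which builds the isoprenoid tail, at -1.20. Of 12 regulators of mitochondrial biogenesis, 1 rose and 4 fell.

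Ppargc1a, the coactivator PGC-1α, was measured at 9.22, 19.9 and 21.2 CPM in control and 46, 62.5 and 35.5 CPM in No-Trp livers and rose by 1.54 on the log2 scale (edgeR adjusted p = 0.028). The related coactivator Pprc1 fell by 1.14, Nrf1 by 0.71 and Tfam, which packages mitochondrial DNA and is needed to transcribe it, by 0.62. Gabpa, Esrra and Ppargc1b did not pass, at -0.21, 0.33 and -0.09. In the xenografts 0 of these 8, 13 and 12 genes were called (1, 1 and 0 had an unadjusted p under 0.05), and for Ppargc1a the diet effect differed between the models by -2.32 (edgeR adjusted p = 0.018). Atpif1, the inhibitor of the ATP synthase, was at 204, 125 and 136 CPM in control and 65.5, 28.4 and 93 CPM in No-Trp livers (log2 fold change -1.30, edgeR adjusted p = 0.0589).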

How the data were processed

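Poly(A) RNA of 12 mice was sequenced, 3 in each of 4 groups. Whole-number counts per gene symbol were deposited for each library. Per the labels, the processing tools were Trim Galore, STAR 2.7.2b, SAMtools 1.9, HTSeq, Bowtie2 2.3.4.3, BWA 0.7.17 and DESeq2, with build mm10. The strand setting and the rule for overlapping genes were not given in the sources used here. Summary rows of HTSeq, 24.7% to 39.4% of the reads, stayed out of library sizes and tests.

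Counts were tested with edgeR 4.0.16 in R 4.3.3 (TMM scaling, filterByExpr, robust quasi-likelihood fit, two-sided, Benjamini-Hochberg over all genes tested). SE is the log2 fold change divided by the root of F. Each diet comparison used the 6 libraries of its model and the other comparisons used all 12. Calls are at an adjusted p of at most 0.05. Alternatives were DESeq2 1.42.0, RLE size factors, library totals, no count filter, each library left out, the resubmission mark as covariate, other library sets and, added after seeing the data, a length offset (spline with 5 degrees of freedom). On simulated counts with 200 genes changed by 2-fold, the liver diet fit recovered 90% of them, and 5.26% of its calls were false. The changed genes all had a mean count of at least 100. The simulated spread between mice was smaller than the 31.6% estimated in the liver diet fit. The simulation therefore does not give the power of the test in these data.

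Lengths are medians of RefSeq-matched transcripts in GENCODE M21. Members and lists were chosen with earlier results of these data known. Any member could be named. Values per library were kept for complex II, isoform families, members called with diet or in the interaction and the extremes of a comparison or complex. Other genes come from lists of the pathway. Libraries are separate mice.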

Additional observations from a re-analysis of the deposited data

Results flagged for a closer look

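The diet effect differed between the models, by the interaction term of the edgeR fit over 12 libraries, in 8 members. The log2 difference (xenograft minus liver) was -1.25 for Ndufa6, -1.19 for Ndufb9, -1.18 for Cox7a2l, -1.06 for Ndufa2, -0.99 for Ndufv3 and -0.81 for Ndufv1, and it was 2.18 for Cox7a1 and 3.30 for Cox6b2. The called share of members, 10%, was below that of all genes, 15.6%. Cox6b2, Ndufb9 and Cox7a2l were called in each of the 12 fits that left out 1 library. Ndufa6 was lost in 5 of them, Ndufv3 in 6, Cox7a1 and Ndufv1 in 8 each and Ndufa2 in 9. Groups of 3 are too small for a test of single libraries as outliers.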

How the results depend on the processing

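No paired analysis was possible because the 4 groups share no replicate number. Library totals in place of TMM factors moved the median of all genes to -0.30 in livers, 0.11 in xenografts, 0.41 for the difference between models in diet effect, 0.17 between models on control diet and 0.68 on No-Trp diet. The share of higher calls among all calls went from 52.5% to 30.9%, from 65.5% to 85.7%, from 52.7% to 80.2%, from 51.7% to 59.5% and from 55.7% to 74.8%. The members' medians were then -0.21, -0.27, -0.09, -0.66 and -0.71. Members called higher and lower numbered 0 and 2 in livers, where 6.29% and 14% of all genes were called. For the difference in diet effect they numbered 2 and 2, where 13.3% and 3.28% of all genes were called. Between models on control diet they numbered 3 and 45 (33.4% and 22.8% of all genes). On No-Trp diet they numbered 3 and 56 (48.5% and 16.4% of all genes). With library totals, 20 xenograft members were lower at an unadjusted p under 0.05. Members that rose in livers numbered 0 without the count filter, 4 with DESeq2, 5 with the resubmission covariate, 5 with all 12 libraries in 1 fit and 7 with the length offset, the last added after seeing the data, where 8.9%, 17.6%, 15.2%, 14.6% and 13.5% of all genes rose. In xenografts, 1 member was lower without the count filter (0.348% of all genes) and 6 with DESeq2 (2.2% of all genes). With the length offset 21 were lower at an unadjusted p, and the median was -0.58 with the resubmission covariate. For the difference in diet effect, 15 members were lower with DESeq2 (12.6% of all genes) and 13 with the length offset (9.24% of all genes). With that offset 4 members were higher between models on control diet, where 29.9% of all genes were higher. The cause of these shifts was not tested.

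Leaving out 1 library at a time gave 0 to 0 members risen in livers and 0 to 2 fallen, 0 being without liver control 103 (then 0.05% of all genes were called higher and 0.01% lower) and 1 without 101. The liver median ran from -0.01 to 0.22. In xenografts 0 to 0 were called either way, 14 (without No-Trp 35) to 43 were lower at an unadjusted p, and the median ran from -0.46 to -0.27. The difference in diet effect gave 1 to 2 higher, 2 (without liver control 103 or xenograft control 40 or 43) or 3 (without liver No-Trp 107 or xenograft No-Trp 35, 36 or 37) to 12 lower (without liver control 101) and medians from -0.63 to -0.28. Of all genes, 3.13% to 8.76% were then called higher and 3.02% to 9.92% lower. Between models, 0 to 3 members were higher and 44 to 56 lower on control diet (medians -1.02 to -0.56). The shares of all genes were 27% to 28.5% higher and 24.8% to 26.6% lower. On No-Trp diet 1 to 3 members were higher and 69 to 73 lower (medians -1.34 to -1.15). There 28.8% to 30.8% of all genes were higher and 23.8% to 25.4% lower. Among the members recomputed singly, Atp5g2 changed sign between models on No-Trp diet, from -0.11 to 0.42 with library totals and 0.04 with the length offset, and on control diet it was called higher with both (0.50 and 0.46) and without xenograft control 41 (0.44). No other member recomputed singly changed sign, and the remaining members named in the text were not recomputed.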
